A study of Mus musculus with 65 samples.

Results

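The 39 Hox genes of the mouse were described in RNA sequencing libraries of cerebellum, pons and medulla. They were chosen by name: every protein-coding gene whose symbol is Hox, a cluster letter from a to d and a number. They make up 39 of the 49670 gene IDs in the count table, with 11 genes in cluster A, 10 in cluster B, 9 in cluster C and 9 in cluster D. Hox genes encode homeodomain transcription factors. Within each cluster the genes lie in the order in which they are switched on along the body axis, and the number in the name gives the paralogue group, low numbers being the most rostral. In the embryonic hindbrain the rostral limits of the low-numbered groups fall at boundaries between rhombomeres, the high-numbered groups mark spinal cord, and the isthmus and the cerebellar primordium lie rostral to the Hox domain. Part of this pattern persists in adult brainstem neurons.

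The series asked how an antisense oligonucleotide (ASO) against Atxn1, the gene whose expanded glutamine repeat causes spinocerebellar ataxia type 1, acts in a knockin mouse. There were 65 libraries of total RNA from C57BL/6J mice, in 3 arms: wild type given vehicle, Atxn1[82Q] knockin given vehicle, and the same knockin given the ASO. In that order of arms there were 4, 4 and 4 libraries of cerebellum, 3, 3 and 3 of medulla and 3, 3 and 3 of pons at 18 weeks, and 8, 8 and 7 of medulla and 4, 4 and 4 of pons at 28 weeks. The labels split the 28-week medulla into batch 1 (replicates 1 to 4) and batch 2 (replicates 5 and up), and all other tissues carry no batch. The labels name the allele Atxn1[82Q], and give neither dose, route nor dissection landmarks. They do not say that each library is a separate mouse, so p-values measure the spread between these libraries, which may be technical.

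Library totals were 49.2 to 119.1 M counts, with a median of 77.0 M, so that 3 counts, the limit that a count of 0 allows, correspond to 0.0252 to 0.061 CPM, the depth-normalised count after TMM scaling in edgeR. Limits of this kind cover counting error only. Gabra6, a granule cell receptor subunit, stood at 555 to 808 CPM in cerebellum and at no more than 96.7 CPM in any pons or medulla library. Atxn1 went against several labels: at 18 weeks wild type replicate 3 had 15.3 CPM in medulla and 16.5 in pons, in the range of the ASO libraries, while ASO replicate 2 had 39 and 51. At 28 weeks ASO replicate 2 had 49.4 CPM in medulla and 51 in pons. Directions between arms at 18 weeks, and for the ASO at 28 weeks, are therefore those of libraries labelled wild type, knockin or ASO.

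Hox levels stepped up from cerebellum to pons to medulla. The 39 genes summed to 0.603 to 2.47 CPM in the 12 cerebellum libraries, with a median of 1.21. In the 21 pons libraries the sum ran from 13.4 to 66.8 CPM with a median of 34.5. Medulla at 18 weeks had 166 to 334 CPM with a median of 259 in 9 libraries, and medulla at 28 weeks 35.8 to 449 CPM with a median of 284 in 23. Every pons library lay above every cerebellum library, and every medulla library above every pons library except 4 at 28 weeks, which are described further on. In bulk tissue, fewer expressing cells and less RNA per cell cannot be told apart. Between 11 and 19 of the 39 genes had a count in a cerebellum library, 20 to 26 in pons and 20 to 34 in medulla.

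**Figure D1:**
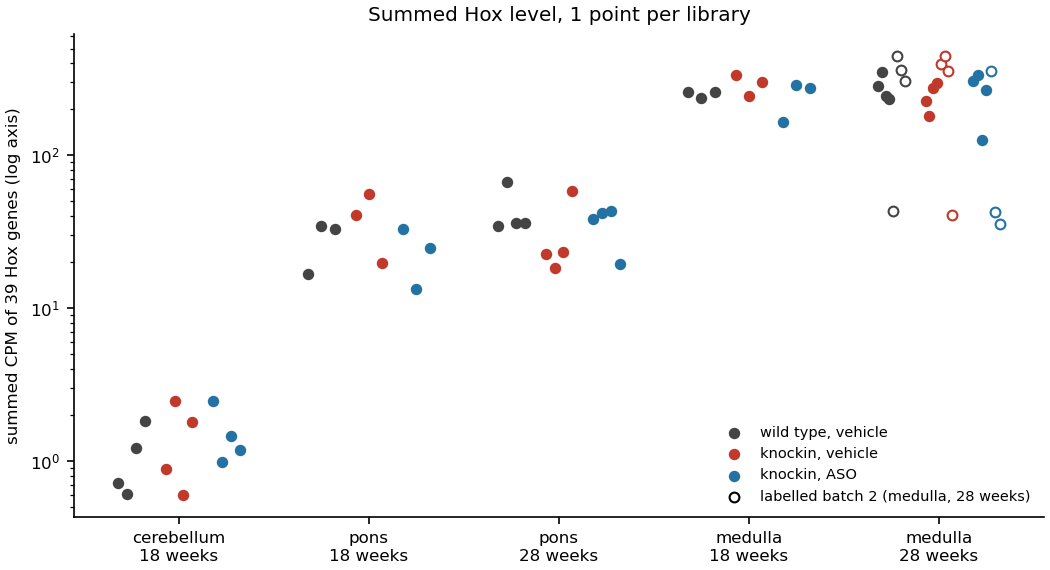
Summed level of the 39 Hox genes (CPM, log axis) in each of the 65 libraries, by tissue, age and arm, with open symbols for batch 2 of the 28-week medulla. Cerebellum sits at 0.603 to 2.47, pons at 13.4 to 66.8 and medulla mostly above 100, with 4 open medulla symbols at 35.8 to 43.3 inside the range of pons.

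Tissues differed in which paralogue groups they held. In 28-week medulla the median summed level was 3.66 CPM for group 1, 16.6 for group 2, 45.8 for group 3, 52.7 for group 4 and 113 for group 5. Beyond this peak it was 22.1, 9.1 and 19.9 CPM for groups 6, 7 and 8, and 0.308 and 0.0234 for groups 9 and 10. In 28-week pons the same medians were 1.5, 3.94, 8.77, 10 and 10.6 CPM for groups 1 to 5, then 0.492, 0.0764 and 0.111 for groups 6 to 8. The peak at group 5 appears in both tissues, and the groups above it are low in pons. At 18 weeks the peak of medulla was again group 5, with 104 CPM, while in pons groups 3, 4 and 5 stood level at 7.39, 6.84 and 6.95 CPM. Groups 6 to 10 gave 11.1% to 22.2% of the summed Hox level in 18-week medulla and 0.429% to 4.76% in pons. In cerebellum this share was 3.46% to 17.4%, of a sum that never passed 2.47 CPM.

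All 4 clusters took part. Median summed levels in medulla were 79.3 CPM for cluster A, 145 for cluster B, 38.1 for cluster C and 13.7 for cluster D. In pons they were 10.9, 16, 6.06 and 1.74 CPM, and in cerebellum 0.39, 0.474, 0.158 and 0.148 CPM. The order of clusters A to D was therefore B, A, C and D in each of the 3 tissues by these medians.

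**Figure D2:**
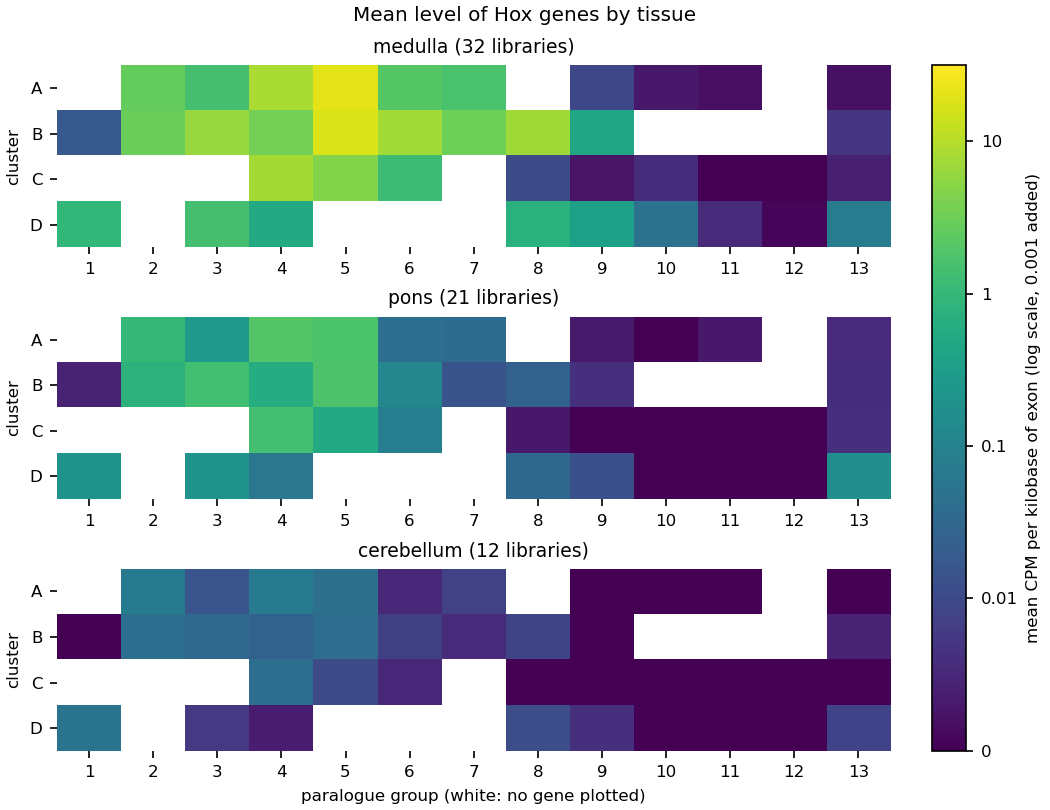
Mean level of Hox genes (CPM per kilobase of exon, white where no gene is plotted) by cluster (rows) and paralogue group (columns) in cerebellum, pons and medulla. The medulla signal centres on groups 3 to 8 with Hoxa5 and Hoxb5 highest, the pons signal ends near group 5, and cerebellum is near 0 throughout.

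Levels of different genes were compared per kilobase of exon. In medulla the highest were Hoxa5 at 20.9 ± 9.45 CPM per kilobase (SD, n = 32) and Hoxb5 at 17.4 ± 7.99, followed by Hoxa4 at 8.54, Hoxc4 at 7.88, Hoxb6 at 7.54 and Hoxb8 at 7.17. The gap between Hoxa5 and Hoxb5 is smaller than the SD of either. In pons the highest levels per kilobase were Hoxa4 at 1.98, Hoxb5 at 1.72, Hoxa5 at 1.66, Hoxc4 at 1.41 and Hoxb3 at 1.4 (n = 21). In cerebellum Hoxa2 led with 0.0707 CPM per kilobase, before Hoxa4 at 0.0688 and Hoxd1 at 0.0525 (n = 12). Group 6 and group 8 genes thus stand among the 6 highest of medulla and are missing from the 5 highest of pons.

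Hoxb1 and many of the high-numbered genes were close to silent, while Hoxc4 and Hoxd1, also at cluster ends, were not. Hoxc11 and Hoxc12 had no count in any library. Hoxb1, which marks rhombomere 4 in the embryo, had 100 counts over the 32 medulla libraries, 6 over the 21 pons libraries and none in cerebellum. Hoxc9 had 5 counts in medulla and Hoxa10 9, with none in pons or cerebellum. Hoxd13 alone in groups 11 to 13 was regularly above 0.

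Among groups 1 and 2, levels in pons and medulla lay closest together. Hoxa2, the Hox gene with the most rostral limit in the embryonic hindbrain, had 4.65 / 5.79 / 6.52 CPM in 18-week medulla and 0.474 / 2.28 / 3.52 CPM in pons, without overlap, a log2 difference of 1.4 (edgeR, SE 0.29, adjusted p = 0.0039). Hoxb2 had 7.55 / 10.3 / 12.6 CPM in 18-week medulla and 0.919 / 2.9 / 4.96 in pons, a log2 difference of 1.78 (edgeR, SE 0.29, adjusted p = 0.00031). Hoxd1 differed by 2.03 at 18 weeks (edgeR, SE 0.26, adjusted p = 1.1e-05) and 2.41 at 28 weeks.

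In cerebellum these genes were low but not absent. Hoxa2 was at 0 / 0.0908 / 0.384 CPM in cerebellum and 4.18 higher in pons on the log2 scale (edgeR, SE 0.32, adjusted p = 1.3e-11). Hoxd1 was 2.17 higher in pons and 4.2 higher in medulla.

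Groups 3 to 5 carried most of the signal in medulla. Hoxb3 was at 21.7 / 28.6 / 33.5 CPM in 18-week medulla and at 2.01 / 5.37 / 9.49 CPM in 18-week pons, a log2 difference of 2.44 (edgeR, SE 0.33, adjusted p = 5.3e-05). Hoxa5, needed in the embryo for normal breathing circuits among other organs, was at 23.2 / 39.1 / 53.9 CPM in 18-week medulla and 1.01 / 2.33 / 5.57 CPM in pons. The groups do not overlap, and the log2 difference was 4.08 (edgeR, SE 0.28, adjusted p = 5.2e-10). Hoxb5 had 31.9 / 52.5 / 66.9 CPM in medulla against 0.71 / 3.56 / 6.26 in pons, again without overlap, and a log2 difference of 3.85 (edgeR, SE 0.29, adjusted p = 3.7e-09). In cerebellum Hoxb5 did not pass 0.204 CPM.

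The other genes of groups 3 to 5 were higher in medulla as well. Their log2 differences at 18 and 28 weeks were 2.54 and 2.51 for Hoxa3, 3.01 and 2.85 for Hoxd3, 2.34 and 1.92 for Hoxa4, 3.11 and 2.24 for Hoxb4, 2.83 and 2.25 for Hoxc4, 3.84 and 2.85 for Hoxd4, and 3.47 and 2.76 for Hoxc5. Hoxc4 had 15.9 / 21.9 / 25.9 CPM in 18-week medulla and 0.624 / 2.84 / 6.59 CPM in pons. All of these were called by edgeR at both ages, and the largest adjusted p among them was 0.00034, for Hoxa3 at 18 weeks. Within groups 3 and 4 the cluster D gene had the widest difference at both ages. Exon bases of Hoxd3 and Hoxd4 are shared to 62.3% and 52.3%, so these 2 values are not independent.

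Groups 6 to 8 were well expressed in medulla and close to 0 in pons. Hoxb8, a gene of the spinal cord and caudal hindbrain, had 6.28 / 15 / 23.5 CPM in 18-week medulla, 0 / 0.0291 / 0.126 in 18-week pons and 0 / 0.0192 / 0.0952 in cerebellum. Its medulla minus pons difference was 8.33 on the log2 scale (edgeR, SE 0.4, adjusted p = 3.8e-13). Hoxb6 had 6.13 / 13.8 / 17.1 CPM in medulla and 0 / 0.0768 / 0.24 in pons, a log2 difference of 7.25 (edgeR, SE 0.33, adjusted p = 5.9e-14). Hoxb7 and Hoxa6 differed by 7.99 and 6.84. Hoxc6, Hoxa7 and Hoxd8 differed by 4.12, 5.75 and 4.71, and the largest adjusted p among these 5 genes was 2.1e-06 (edgeR). Within each of groups 6, 7 and 8 the cluster B gene had the widest difference of those tested, and Hoxb6, Hoxb7 and Hoxb8 were at 13.8, 4.46 and 15 CPM in the median 18-week medulla library. Their neighbours Hoxa6, Hoxa7 and Hoxd8 were at 1.99, 2.35 and 1.29 CPM. In the pons and cerebellum libraries these genes lie at or near the level of 3 counts, so the differences depend on few counts there. Hoxb9 and Hoxd9, of group 9, differed by 6.64 and 7.06, with larger SEs of 1.15 and 1.26.

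Of the 39 genes, 24 passed the filter on low counts at 18 weeks, and 23 of these were higher in medulla than in pons by edgeR (adjusted p under 0.05) and 0 lower. Of all 21630 genes tested, 1.89% were higher and 3.49% lower. A Hox gene could pass the filter through medulla alone, so these counts describe the genes that passed. The median log2 difference of the 24 was 3.65, beside -0.02 for all genes tested. By paralogue group the median was 1.59 for groups 1 and 2, 3.06 for groups 3 to 5, 6.84 for groups 6 to 8 and 6.85 for groups 9 and 10. The gene outside the 23 was Hoxd13, at -0.77 (edgeR adjusted p = 0.38).

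At 28 weeks 27 Hox genes were tested, with 24 higher and 1 lower in medulla, beside 25.9% higher and 23.9% lower of all 22046 genes tested. The medians by group were 1.87, 2.64, 5.01 and 4.06 in the same order. Hoxb8 differed by 8.36 (edgeR, SE 1.2, adjusted p = 2.5e-06), and Hoxb6 by 5.53 (SE 0.77). The SEs are larger than at 18 weeks, and 4 medulla libraries with pons-like Hox levels are among the 23. Without those 4, 25 Hox genes were called, and Hoxb8 differed by 8.76, Hoxb6 by 5.91 and Hoxa5 by 3.74. The 4 were picked by their Hox level, so leaving them out widens these differences by construction and supports nothing. Without ASO replicate 5 of medulla, Hoxb7 and Hoxb9 lost the call while the differences stayed large, at 6.51 (edgeR adjusted p = 0.11) and 4.99 (adjusted p = 1).

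**Figure D3:**
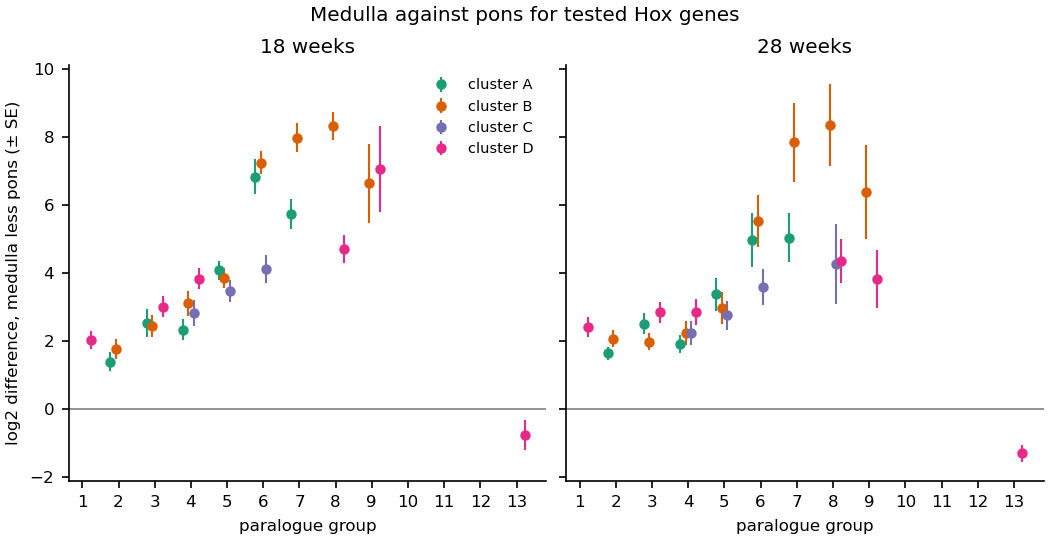
Medulla minus pons difference of tested Hox genes (log2, edgeR, bars 1 SE) against paralogue group at 18 and 28 weeks. The differences run from 1.4 for Hoxa2 to above 8 for Hoxb8 at 18 weeks, and Hoxd13 alone lies below 0 at both ages.

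Hoxd13 ran the other way. This last gene of cluster D, known for its part in digit formation, was at 0.252 / 0.469 / 0.767 CPM in 28-week pons and 0 / 0.169 / 0.422 CPM in 28-week medulla. The ranges overlap, and the medulla minus pons difference was -1.3 on the log2 scale (edgeR, SE 0.25, adjusted p = 5.8e-05). Evx2, the homeobox gene beyond Hoxd13 at that end of the cluster and named after its values were seen, was at 2.5 to 5.3 CPM in 28-week pons and 1.39 to 3.89 in 28-week medulla. The 4 medulla libraries low in the other Hox genes had Hoxd13 at 0.191, 0.241, 0.422 and 0.315 CPM.

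Against cerebellum, 24 of 24 tested Hox genes were higher in medulla by edgeR, where 34.4% of all genes were. From pons to cerebellum, 20 of 24 were higher in pons, where 35.6% of all genes were. The 4 not called were Hoxa7, Hoxd8, Hoxb9 and Hoxd9, all of groups 7 to 9. Hoxb3 was 5.29 higher in pons than in cerebellum on the log2 scale (edgeR, SE 0.38, adjusted p = 1.3e-11), and Hoxb8 1.55 higher (SE 0.67, adjusted p = 0.043).

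Genes that act with or around the Hox genes were not uniformly higher in medulla than in pons. Of 9 cofactors of the TALE class, which bind DNA together with Hox proteins, 2 were higher (1 of them Meis1, at 0.26) and 1 lower in medulla than in pons at 18 weeks by edgeR. Of 9 tested upstream regulators, 1 was higher. Of all genes tested, 1.89% were higher and 3.49% lower in medulla at 18 weeks, and 25.9% and 23.9% at 28 weeks. The isthmus and rostral hindbrain list had 2 higher and 5 lower of 8 at both ages, and the 2 higher at 28 weeks are near the share of all genes. Its lower genes included En1 at -2.39 and Pax5 at -2.91 at 18 weeks, and its higher genes were Pax2 at 1.64 and Pax8 at 1.93.

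The 4 low medulla libraries all belong to batch 2 at 28 weeks: wild type replicate 5 with a Hox sum of 43.3 CPM, vehicle knockin replicate 8 with 40.9, and ASO replicates 6 and 7 with 42.7 and 35.8. They are spread over the 3 arms. Their totals were 84.3 to 97.7 M counts, beside 62.6 to 105 M over the 28-week medulla. The same 4 of 32 medulla libraries fell at or below the highest pons library when the sum was scaled by library totals or by RLE factors, taken without Hoxb5, or taken per kilobase.

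Their shortfall widened from group 1 to group 5 and was wide at groups 6 to 8. As a percentage of the 28-week medulla median, ASO replicate 6 had 60.4% for group 1, 48.4% for group 2, 24.7% for group 3, 18.5% for group 4, 9.2% for group 5, 2.07% for group 6 and 0.96% for group 8. Wild type replicate 5 had 34.7%, 31.8%, 26.9%, 22% and 10.4% for groups 1 to 5 and 0.243% for group 8. Vehicle knockin replicate 8 had 56% for group 1 and 0.94% for group 8, and ASO replicate 7 had 58.7% and 0.528%. Group 7 stood above group 6 in 3 of the 4, at 6.56% against 3.92% in vehicle knockin replicate 8, 3.91% against 1.66% in ASO replicate 7 and 2.92% against 2.19% in wild type replicate 5. Group 9 was at 38% in vehicle knockin replicate 8 and at 40.9% in ASO replicate 7. It was at 6.92% in ASO replicate 6 and at 0 in wild type replicate 5. The medulla median of group 9 is low and pools the arms, which differ in level. Vehicle knockin replicate 8 had 0.117 CPM of group 9, and every other vehicle knockin library had 1.98 CPM or more. ASO replicates 6 and 7 had 0.0213 and 0.126 CPM. ASO replicate 3 had 0.0798 CPM, and the other ASO libraries had 1.58 CPM or more. No wild type library passed 0.308 CPM. Hoxb8 was at 0, 0, 0.0213 and 0.0419 CPM in the 4, within its range in pons. Hoxb5 was at 1.75, 2.78, 5.24 and 6.71 CPM, beside 2.56 to 11.2 in 28-week pons. For groups 3 and 4 all 4 libraries fell inside the range of 28-week pons, while for group 1 and group 2 some lay above it. Groups 6 to 10 gave 1.82% to 4.39% of their Hox sum, beside 5.17% to 33.7% in the other 19 medulla libraries of that age and 0.429% to 4.76% in pons.

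ASO replicate 3 of batch 1 lay between. Its Hox sum was 127 CPM, and its groups 1 to 3 reached 75.7%, 75.9% and 71.4% of the medulla median, while group 5 reached 36.6%, group 6 18.9% and group 8 8.49%. Hoxb8 was at 1.17 CPM there, above the highest pons value of 0.567.

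**Figure D4:**
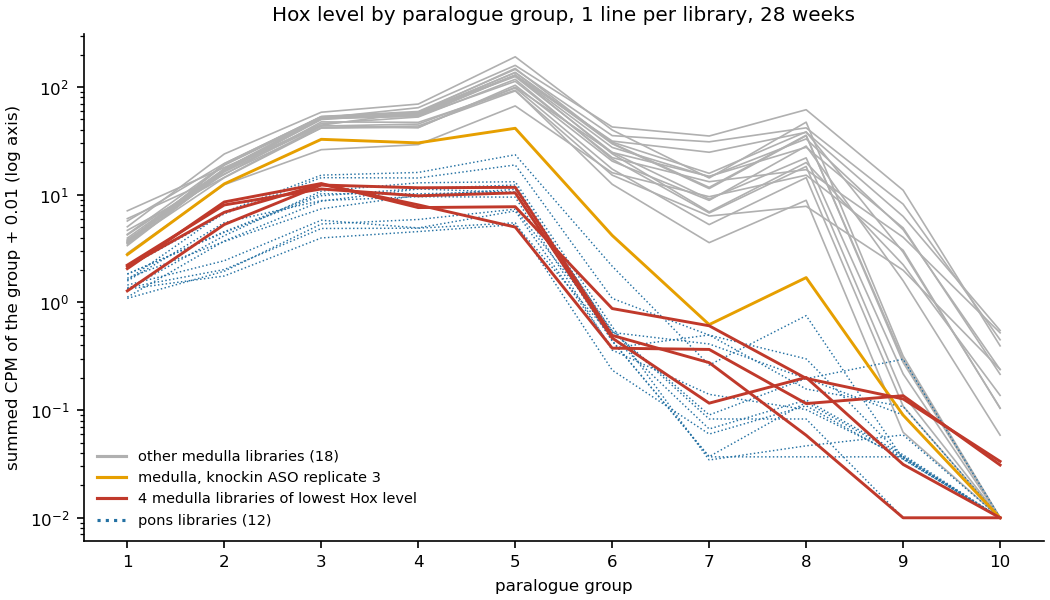
Summed level of each paralogue group (CPM, log axis) in each 28-week library. The 4 medulla libraries in red fall short of the 18 grey medulla libraries by more at groups 5 to 8 than at groups 1 and 2, and lie inside the range of the dotted pons libraries at groups 3 and 4, and ASO replicate 3 in orange runs between.

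En1 and Pax5, picked from the isthmus list, stood higher in these 4 libraries, while the list as a whole overlapped. The other genes of that list are not given one by one here. En1 was at 4.05, 5.96, 6.03 and 12.5 CPM in the 4, at 0.731 to 2.85 in the other 19 and at 8.88 to 15.6 in pons. Pax5, named here after its values were seen, was at 3.6 to 13.8 CPM in the 4 and at 0.338 to 1.64 in the other 19. Slc6a2, the noradrenaline transporter of the locus coeruleus, was at 6.85 to 35 CPM in the 4 and 0.779 to 7.77 in the others, with an overlap. The whole isthmus list summed to 68.9 to 133 CPM in the 4, 60.5 to 84.2 in the others and 113 to 138 in pons, so the list overlaps although En1 and Pax5 do not. The locus coeruleus list overlapped as well, with 65.6 to 289 CPM in the 4 and 34.9 to 128 in the others. Gabra6 ranged from 2.48 to 94.7 in the 4. What share of these libraries came from which level of the brainstem was not tested.

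Within 28-week medulla, Hoxd9, Hoxd10 and Hoxb9 were higher in the knockin than in wild type and Hoxd1 was lower. Of 25 Hox genes tested by edgeR over the 3 arms with batch as a term, 4 were higher in the vehicle knockin (among them Hoxd9, Hoxd10 and Hoxb9) and 1 lower (Hoxd1), beside 9.28% higher and 9.99% lower of all 20465 genes tested. The share called is close to that of all genes, so the count itself says nothing particular to Hox genes. A Hox gene could pass the filter on low counts through the knockin libraries alone, so these counts describe the genes that passed. None of the 10 tested genes of groups 3 to 5 was called, and genes of different groups were not tested against each other. These 4 named genes lie on GRCm38 at chr2:74697727-74700208 (Hoxd9), chr2:74691924-74695105 (Hoxd10), chr2:74762980-74765142 (Hoxd1) and chr11:96271457-96276595 (Hoxb9). Within cluster D, genes near one end were higher and the gene at the other end was lower, so the promoter windows of Hoxd10, Hoxd9 and Hoxd1 are shown, with Hoxb8, which was not called, beside them. Each window holds bases 250 to 51 before the annotated start in RefSeq on GRCm38.p6, plus strand, written 5′ to 3′ with CG dinucleotides in capitals.
Hoxd10: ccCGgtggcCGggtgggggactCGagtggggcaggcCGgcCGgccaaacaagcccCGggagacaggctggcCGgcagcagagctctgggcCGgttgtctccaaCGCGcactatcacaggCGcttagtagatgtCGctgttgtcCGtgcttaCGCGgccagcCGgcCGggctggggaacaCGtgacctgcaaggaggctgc
Hoxd9: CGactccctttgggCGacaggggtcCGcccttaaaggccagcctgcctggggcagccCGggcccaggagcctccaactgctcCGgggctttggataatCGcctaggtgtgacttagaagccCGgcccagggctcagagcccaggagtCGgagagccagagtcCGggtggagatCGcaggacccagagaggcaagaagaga
Hoxd1: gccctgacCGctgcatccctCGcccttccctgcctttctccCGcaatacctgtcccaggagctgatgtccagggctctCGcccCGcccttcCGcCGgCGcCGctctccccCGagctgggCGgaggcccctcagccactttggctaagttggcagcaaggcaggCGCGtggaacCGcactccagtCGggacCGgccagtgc
Hoxb8: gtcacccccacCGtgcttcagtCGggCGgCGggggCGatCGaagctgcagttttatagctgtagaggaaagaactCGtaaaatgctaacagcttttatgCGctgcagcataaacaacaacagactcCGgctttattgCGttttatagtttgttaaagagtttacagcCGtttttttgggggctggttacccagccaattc
They lie at chr2:74691641-74691840 (Hoxd10), chr2:74697513-74697712 (Hoxd9), chr2:74762730-74762929 (Hoxd1) and chr11:96281655-96281854 (Hoxb8). They hold 18, 10, 16 and 11 CG dinucleotides, and 12.4%, 29.3%, 15.9% and 26.7% of all 32851 windows of this length hold at least as many. Over the 24 windows found for 22 Hox genes the median was 11 (range 2 to 26), beside 4 for all windows. The Hox and Pbx half-site pattern TGATNNAT, searched on both strands, was in 3 of the 24 Hox windows and in 6.44% of all. AGGTCA, the half-site of nuclear receptors such as those for retinoic acid, was in 6 of 24 and in 11.4% of all. The Hoxd10 window holds 1 AGGTCA, and the other 3 printed windows none. Such matches describe the letters and not binding.

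Hoxd9 separated all vehicle knockin libraries but replicate 8 from wild type, as did Hoxd10 and Hoxb9. Its level was 0 / 0.0508 / 0.13 CPM in the 8 wild type libraries and 0.0469 / 1.87 / 2.42 CPM in the 8 vehicle knockin libraries. Of the 8 knockin libraries, 7 stood at 0.909 CPM or more, above every wild type library, and the exception was replicate 8, 1 of the 4 low in Hox genes. The log2 difference was 4.85 (edgeR, SE 0.89, adjusted p = 0.00067). Wild type libraries alone could not carry Hoxd9 past the filter on low counts, so this p-value carries a selection through the knockin. With ASO the level was 0 / 0.715 / 1.92 CPM in 7 libraries. Hoxd9 shares no exon bases with another annotated gene.

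Hoxd10, a gene of lumbar spinal cord and limb, had no count in any of the 8 wild type libraries and 198 counts in the vehicle knockin, 0 / 0.284 / 0.539 CPM. The pooled knockin level of 0.279 CPM was at least 63.5-fold higher than the 0.00439 CPM that 3 counts over the wild type group allow. The ASO libraries held 37 counts, at least 14.3-fold higher. In edgeR the knockin difference had adjusted p = 0.00084. With no wild type count, Hoxd10 could pass the filter on low counts only through knockin libraries, and this p-value carries that selection. Knockin replicate 8 had no count of Hoxd10, and the other 7 had 0.0938 CPM or more. Of its exon bases 5.7% are shared with another gene on the same strand. Hoxb9 was at 0 / 0.0779 / 0.242 CPM in wild type and 0 / 2.59 / 8.4 CPM in the vehicle knockin, with 7 of 8 knockin libraries above every wild type library. Its log2 difference was 4.85 (edgeR, SE 1.13, adjusted p = 0.0047). Hoxb9 too could not pass the filter through wild type libraries alone, and its p-value carries the same selection.

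At the other end, Hoxd1 was lower in the knockin. It had 0.242 / 3.09 / 5.44 CPM in wild type and 0.316 / 1.22 / 1.69 CPM in the vehicle knockin. All wild type libraries but the low replicate 5 lay above every knockin library. The log2 difference was -1.42 (edgeR, SE 0.38, adjusted p = 0.011), and the ASO libraries held 0.617 / 1.26 / 1.83 CPM.

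Other genes missed the threshold in this fit. Hoxa7 differed by 2.14 (edgeR, SE 0.75, adjusted p = 0.052). It was past the threshold with DESeq2 (2.15, adjusted p = 0.016), with library totals in edgeR (2.18, adjusted p = 0.045) and with only the 2 groups in edgeR (2.1, adjusted p = 0.026). In the edgeR fit over 3 arms Hoxd8 differed by 1.82 (adjusted p = 0.093). Hoxb8 was at 0 / 19 / 45.3 CPM in wild type and 0 / 18.4 / 52.7 in the knockin, a difference of 0.01 with an SE of 1.02. The 10 genes of groups 3 to 5 lay between -0.29 (Hoxb5, SE 0.63) and 0.17 (Hoxd4, SE 0.46). Without the 4 low libraries 8 Hox genes were called by edgeR, adding Hoxa7 at 2.06 (adjusted p = 0.0025), Hoxd8 at 1.76 (adjusted p = 0.003) and Hoxa2 at -0.28 (adjusted p = 0.022). Hoxd9 was then at 4.78, Hoxb9 at 4.91 and Hoxd1 at -1.46. The 4 libraries were picked by their Hox level, so the calls without them add no support.

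Hoxd9, Hoxd10, Hoxb9 and Hoxd1 kept their direction within both batches, with fewer calls. In batch 1 alone edgeR called Hoxd9 at 4.26 (adjusted p = 0.019), Hoxd10 (adjusted p = 0.026) and Hoxd1 at -1.45 (adjusted p = 0.0032), with Hoxb9 at 5.3 (adjusted p = 0.063). In batch 2 alone it called Hoxd10 (adjusted p = 0.027) and Hoxa9 (adjusted p = 0.0089), with Hoxd9 at 5.53 (adjusted p = 0.051), Hoxb9 at 4.77 (adjusted p = 0.095) and Hoxd1 at -1.39 (adjusted p = 0.25). Of 46 other transcripts within the clusters, 16 were tested in the fit over both batches. There 1 was higher, Gm27477 at 0.56 (edgeR adjusted p = 0.023), beside 9.28% of all genes tested. This count therefore says nothing particular to the clusters.

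**Figure D5:**
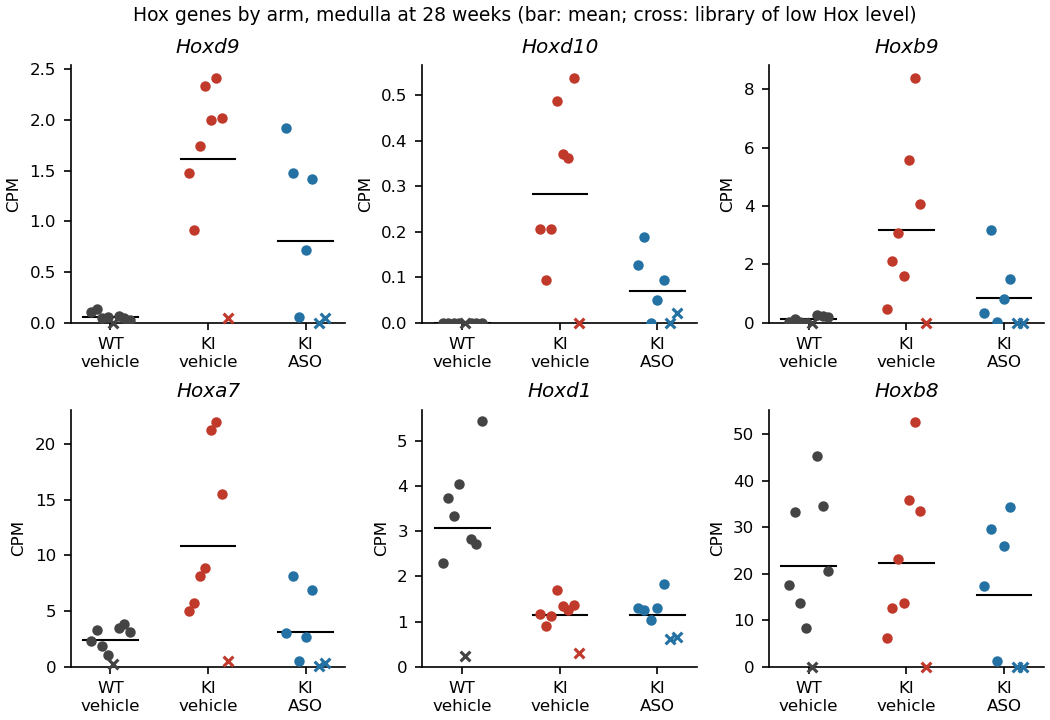
Levels of Hoxd9, Hoxd10, Hoxb9, Hoxa7, Hoxd1 and Hoxb8 (CPM) in each 28-week medulla library by arm, with bars for the mean and crosses for the 4 libraries low in Hox genes. Hoxd9 and Hoxb9 stand above all wild type libraries in 7 of 8 vehicle knockin libraries, Hoxd1 is lower in all 8 than in 7 of 8 wild type libraries, and Hoxb8 overlaps across the 3 arms.

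Other lists moved in the same comparison, in which 9.28% of all genes tested were higher and 9.99% lower. Of the 4 serotonergic raphe genes 3 were lower, with the list at 53.7 to 371 CPM in wild type and 17.1 to 74.8 in the knockin, and Tph2 at -1.49. Of the 5 locus coeruleus genes 4 were lower, with 63.7 to 289 CPM in wild type and 34.9 to 76.4 in the knockin. The 289 CPM belongs to wild type replicate 5, 1 of the 4 libraries low in Hox genes. Of the 5 mature oligodendrocyte genes 4 were lower, with the list at 17000 to 22600 CPM in wild type and 12100 to 17500 in the knockin. The choroid plexus list reached 27.7 to 4510 CPM in wild type and 122 to 24300 in the knockin, with 0 of its 5 genes called. None of 8 isthmus genes was called. Of 20 Polycomb and Trithorax genes, which keep Hox genes silent or active, 7 were higher by edgeR, among them Bmi1 at 0.31 (adjusted p = 0.00011) and Cbx8 at 0.41 (adjusted p = 0.00019). None of 9 upstream regulators was called. In the knockin group the low Hox replicate 8 was the lowest library for Hoxd9, and replicate 2 had cerebellar Gabra6 at 65.4 CPM. The part of these genes and libraries in the Hox differences was not tested.

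The ASO and vehicle knockin comparison at 28 weeks in medulla shares the vehicle knockin libraries with the comparison above. Of 25 Hox genes tested 0 were called by edgeR, beside 1.69% of all genes, and DESeq2 called 0. At an unadjusted p under 0.05 there were 3, among them Hoxd10 at -2.10 (edgeR, SE 0.76, adjusted p = 0.24) and Hoxa7 at -1.70 (adjusted p = 0.4). Hoxb9 was at 0 / 0.317 / 3.17 CPM with ASO. The highest ASO library for Hoxb9, Hoxd10 (0.188 CPM) and Hoxa7 (8.18 CPM) was replicate 2, whose Atxn1 of 49.4 CPM goes against its label. Leaving out each library in turn, this 1 included, called 0 Hox genes. A miss of the threshold does not show that the arms were alike, and 2 of the 7 ASO libraries are among the low ones.

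Whether the knockin effect differed between medulla and pons at 28 weeks was tested as an interaction, added after the values were seen. Of 27 Hox genes 0 were called by edgeR and 0 had an unadjusted p under 0.05, beside 0.0136% of all genes called. DESeq2 called 1, Hoxb9. Hoxd1 differed by -0.98 with an SE of 0.72. Group 9 and 10 genes are near 0 in pons, where the model gives no usable SE for Hoxd10.

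In the other tissues and ages no Hox gene was called between arms by edgeR or DESeq2. In 18-week medulla 24 were tested, with 0 at an unadjusted p under 0.05 for knockin against wild type and 1 for ASO against vehicle, and 0% of all genes were called in both. In 18-week pons 16 were tested, with 0 and 1 at that level and 0% of all genes called. In cerebellum 8 were tested, with 0 and 0, beside 2.71% of all genes for the knockin and 0.0491% for the ASO. In 28-week pons 17 were tested, with 0 and 0, beside 9.79% and 0.0929% (5.65% of all genes were lower in the knockin). The largest knockin values in 28-week pons were Hoxc4 at -0.77, Hoxb4 at -0.76 and Hoxa2 at -0.75. They were larger without vehicle knockin replicate 4, the knockin library with the highest Hox sum. In edgeR 5 Hox genes were then lower, with Hoxa2 at -1.49 (adjusted p = 0.0064), Hoxc4 at -1.32 and Hoxb4 at -1.35. Leaving out that library lowers the knockin level by construction, while wild type replicate 2, the highest of pons at 66.8 CPM, stayed in. These 5 calls therefore add no support, and the share of all genes called in that fit is not given here.

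The group 9 genes of 18-week medulla varied within arms. Hoxd9 was at 1.13, 0 and 0.0332 CPM in the libraries labelled wild type, 1.21, 0.383 and 0.584 in the vehicle knockin and 0, 0.784 and 0.147 with ASO. Hoxb9 was at 1.37, 0.0347 and 0.133, at 0.72, 0.319 and 0.505, and at 0.151, 0.644 and 0.0294 CPM in the same order. The ranges of the 3 arms overlap for Hoxd9 and Hoxb9, since wild type replicate 1 was as high as the knockin. Hoxd10 had no count in any 18-week medulla library of any arm.

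Medulla batch 2 against batch 1 gave 0 of 25 Hox genes by edgeR and by DESeq2, with 0 at an unadjusted p under 0.05, beside 13.8% of all genes, and 6.59% higher. Without the 4 low libraries, all of batch 2, there were 4 higher (Hoxa4 at 0.41, Hoxc6 at 0.87, Hoxa2 at 0.34 and Hoxc5 at 0.59), and without ASO replicate 3 as well 13. The 4 were picked for their low Hox level, so leaving them out raises batch 2 by construction. These calls therefore test nothing.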

How the data were processed

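Total RNA was sequenced from cerebellum, pons and medulla as stranded TruSeq libraries, per the labels. The authors deposited raw read counts per gene, in 1 table of 65 libraries and 49670 Ensembl IDs. The submitters' processing notes name CASAVA 1.8, HISAT2 2.0.2, GRCm38, featureCounts (Subread), R 3.3.3 and DESeq2 1.14.1. The annotation, pair and strand settings are not given in the sources used here. Of the counts from 1 to 20, 70.0% to 78.6% were even. If both mates of a pair were counted, counting error is larger than the counts imply. IDs were named with GENCODE vM21 (49325 of 49670), and the 345 not named held 0.0701% of counts. For 16 Hox genes some exon bases are shared with another gene. The largest shares were Hoxd3 (62.3%), Hoxb3 (52.9%, opposite strand) and Hoxd4 (52.3%), whose values are uncertain.

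Levels are CPM with TMM factors over all 65 libraries. Tests used edgeR 4.0.16 (quasi-likelihood, robust, TMM, filterByExpr with a count minimum of 10) in R 4.3.3 with Benjamini-Hochberg adjustment over all genes tested and a threshold of 0.05, with arm as a term between tissues and batch as a term in 28-week medulla. Adjusted p-values are from this model unless another tool is named. The SE is the log2 difference divided by the square root of F. Alternatives were DESeq2 1.42.0, other scalings, no filter, batches alone, each library left out and replicate blocks. The code was tested on simulated data. Any Hox gene could be named with its level. Tests are given for members called between tissues at 1 CPM or more in the higher tissue, and between arms or batches for called members or the 3 of smallest p. Other lists are given as counts, with a fixed set of named genes and up to 3 called genes a list. The Hox genes, lists and several alternatives, such as leaving out the low libraries, were chosen with earlier results of these data known. Numbers ending the column headers are shared between medulla and pons. Of the 9 numbers of 18-week medulla, 6 recur in cerebellum, but only 1 at the same replicate number. Between medulla and pons, deviations of libraries with the same number correlated at -0.185 to 0.37, beside -0.348 to 0.287 for different numbers within an arm. Both ends lay higher for the same number, but the ranges overlap. Whether the numbers mark pairs is thus not settled, and the main fits did not use them. Single values of some genes are not reported here.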

Additional observations from a re-analysis of the deposited data

Results flagged for a closer look

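In groups of 4 to 10 libraries, the summed Hox level and the 5 genes called between arms were searched for a library with a wide gap to the rest (Dixon's 95% limit). Of 54 groups and quantities 6 showed one, and chance gives about 1 in 20. All 6 were in 28-week pons, with 4 libraries an arm. Wild type replicate 2 had a Hox sum of 66.8 CPM, the highest of pons. Vehicle knockin replicate 4 had 58.9 CPM, and without it 5 Hox genes were called between arms in 28-week pons. Leaving out the highest knockin library lowers the knockin level by construction, so these 5 calls test nothing. Hoxd9 was at 0.0252 CPM in wild type replicate 2 and at 0.258 CPM in ASO replicate 2. Hoxd1 was at 0.107 CPM in wild type replicate 3 and at 0.415 CPM in ASO replicate 2. The other 3 wild type libraries had no count of Hoxd9, and 0.0252 CPM is below the level of 3 counts.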

How the results depend on the processing

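Of the values recomputed for single genes, 3826 kept direction and side of the threshold, 24 lost the call, 4 gained one and 2 reversed. Both reversals were Hoxd4 between medulla batches, which went from -0.57 to 0.06 without the 4 low libraries and to 0.04 without 5 (chosen after seeing the data). Knockin against wild type in 28-week medulla called 5 Hox genes, 3 in batch 1 alone, 2 in batch 2 alone, and 8 without the 4 and 8 without the 5. DESeq2 called 6 and library totals 6 (both with Hoxa7), and no filter 7 (with Hoxa9 and Hoxd11). The batch comparison went from 0 to 4 without the 4 and to 13 without the 5. These libraries were picked by their Hox level, so the counts without them test nothing. The interaction went from 0 to 1 with DESeq2. Without the 18-week medulla libraries whose Atxn1 goes against the label the arm comparisons stayed at 0. Leaving out each library in turn gave 22 to 23 for medulla against pons at 18 weeks, 24 against cerebellum, 17 to 21 for pons against cerebellum, 22 to 25 for medulla against pons at 28 weeks, 5 to 6 for the 28-week medulla knockin, 0 to 5 for the 28-week pons knockin and 0 for the other arm comparisons. With wild type libraries alone, medulla against pons lost, among others, Hoxa2, Hoxb2 and Hoxa3 at 18 weeks and Hoxb9 at 28 weeks. With a replicate block by replicate number the counts were 22, 24, 18 and 25 for the 4 tissue comparisons (medulla against pons, medulla against cerebellum, pons against cerebellum at 18 weeks, medulla against pons at 28 weeks), and 23, 23, 17 and 25 by header number. The 28-week medulla knockin gave 4 with the block, and the other arm comparisons 0. The numbers are not shown to pair libraries.

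Depth limits group 9 and higher genes, where a few counts decide a value. The cause of the changes between these settings was not tested.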
